A study of Sus scrofa with 3 samples.

Results

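The genes described here are the pig homeobox and T-box transcription factors that carry positional information in the body: the HOX genes of the A, B, C and D clusters, their cofactors of the MEIS and PBX families, the T-box (TBX) genes and the Iroquois (IRX) genes. Members were chosen by a rule on names, set with earlier results of these data known. It took genes typed mRNA and named HOXA, HOXB, HOXC, HOXD or TBX plus a number, or IRX, MEIS or PBX plus a single digit. This gave 53 of the 22826 mRNA genes among 34570 annotated genes: 32 HOX genes (9 of HOXA, 10 of HOXB, 5 of HOXC and 8 of HOXD), 10 TBX, 4 IRX, 3 MEIS and 4 PBX genes. The RNA came from retroperitoneal fat, taken as visceral adipose tissue, of male Wuzhishan miniature pigs that were 6 to 7 months old at the start. All pigs received a high-fat and high-cholesterol diet for 12 weeks, and no group on a normal diet was analysed here. IM pigs were intact males with a skin incision only, CM pigs were castrated, and CMT pigs were castrated and injected into the muscle each week with testosterone propionate in corn oil at 10 mg/kg. RNA of the 4 to 6 pigs of a group, as the labels count them, was mixed into 1 pool and sequenced as 1 library, so 3 libraries were compared without replicates.

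HOX genes lie in clusters along the chromosome, and their order in the cluster follows the order in which they are used along the head-to-tail axis of the embryo. Low-numbered (anterior) genes act towards the head, middle (central) genes in the trunk and high-numbered (posterior) genes towards the tail and in the limbs. Adult cells keep much of this pattern, and fat depots from different body sites differ in their HOX, TBX and other developmental genes, which makes these genes usable as a record of where a depot arose. MEIS and PBX proteins bind DNA together with HOX proteins, T-box factors pattern limbs, heart and body wall, and Iroquois factors pattern several organs. IRX3 is also known for a role in adipocyte precursors.

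Levels are in UQRPKM, reads per kilobase of transcript scaled to the upper quartile of the library, which allows levels of different genes to be set side by side. Where 3 values stand together they belong to the IM, CM and CMT library, in that order. The values were whole multiples of a unit per gene and library, which returned 14844063, 13582288 and 13449107 reads over mRNA genes. Brackets after a log2 ratio hold its exact 95% interval from these reads, and such intervals cover counting error only, not the spread between pigs. A gene with 1 UQRPKM or more in each library of a pair was called higher or lower when its ratio reached 1.5-fold. Because a call rests on 1 pool against 1 pool, it describes these libraries and no test of the conditions was possible. A value of 0 was read with care, as 6 of 66 ribosomal protein genes, which every cell uses, stood at 0 in every library too.

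The tissue label was checked first. Of 10 adipocyte markers, 8 were found in the files, and all 8 were above 0 in the 3 libraries, with ADIPOQ (adiponectin) at 74928, 69193 and 63873 UQRPKM. Kidney markers, for the organ that retroperitoneal fat adjoins, were listed at 0 for 7 of the 8 found. Their summed level was 0, 0 and 0.391. Of the 7 adrenal markers found, 4 were at 0 in all, and the sums were 33.2, 29.5 and 34.0. STAR had 25.3, 22.7 and 27.6, PNMT 7.09, 0 and 6.43, and CHGA 0.804, 6.75 and 0. The libraries differed in RNA of other tissues. Summed levels of 12 skeletal muscle markers were 82.3, 70.9 and 6145, with CKM, MYOD1 and PAX7 at 0 in all. ALB (albumin), a defining hepatocyte gene, had 2.61 UQRPKM in IM against 2910 in CM and 4.00 in CMT, and the 8 hepatocyte markers found besides APOA1 summed to 15.8, 6494 and 21.1. APOA1 was high in every library, at 2539, 2339 and 1714. Mesothelial markers, 7 of 8 found and LRRN4 at 0, summed to 45.3, 110 and 237. This sum includes WT1 and BNC1, given further on as depot genes, and CALB2, which was highest in IM (0.919, 0 and 0). The part of these other tissues in the results below was not tested. In bulk RNA, fewer cells of a type and less RNA per cell cannot be told apart.

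Of the 53 genes, 37 were above 0 UQRPKM in all 3 libraries, against 64.9% of all mRNA genes, 5 were above 0 in some libraries only, and 11 were listed at 0 in all. The 11 were HOXA13, HOXB1, HOXB13, HOXC11, HOXD11, HOXD12, HOXD13, TBX10, TBX19, TBX20 and TBX22. The 5 seen in some libraries (HOXA11, HOXC13, HOXD1, IRX2 and TBX4) stayed between 0 and 1.28 UQRPKM. At least 10 UQRPKM was reached by 28 genes in every library and by 30 in any.

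HOX reads were concentrated in the central genes. All 10 central HOX members by name (numbers 4 to 8) had at least 10 UQRPKM in every library. So did 4 of the 8 anterior members (1 to 3). Of the 14 posterior genes (9 to 13), 2 reached that level in every library and 6 were listed at 0 throughout. Summed over the members, the central group held 76.4%, 80.1% and 75.1% of HOX UQRPKM. The anterior group held 16.5%, 13.8% and 16.5%, and the posterior group 7.09%, 6.07% and 8.43%. The 3 pools therefore had the same ranking of the groups, and the summed level of the HOX members was 1316, 1251 and 1305 UQRPKM. With the HOX genes listed under LOC names and described further on, HOXA7 above all, the central share was 82.7%, 85.4% and 81.8%. HOXC5, a central gene under a LOC name, was read only in CM, at 2.11 UQRPKM. The central HOXA6 and the posterior HOXC9 matched no row, so the shares include neither. No gene numbered 13 had more than 0.664 UQRPKM, the level of HOXC13 in IM, which came from 1 read.

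**Figure D1:**
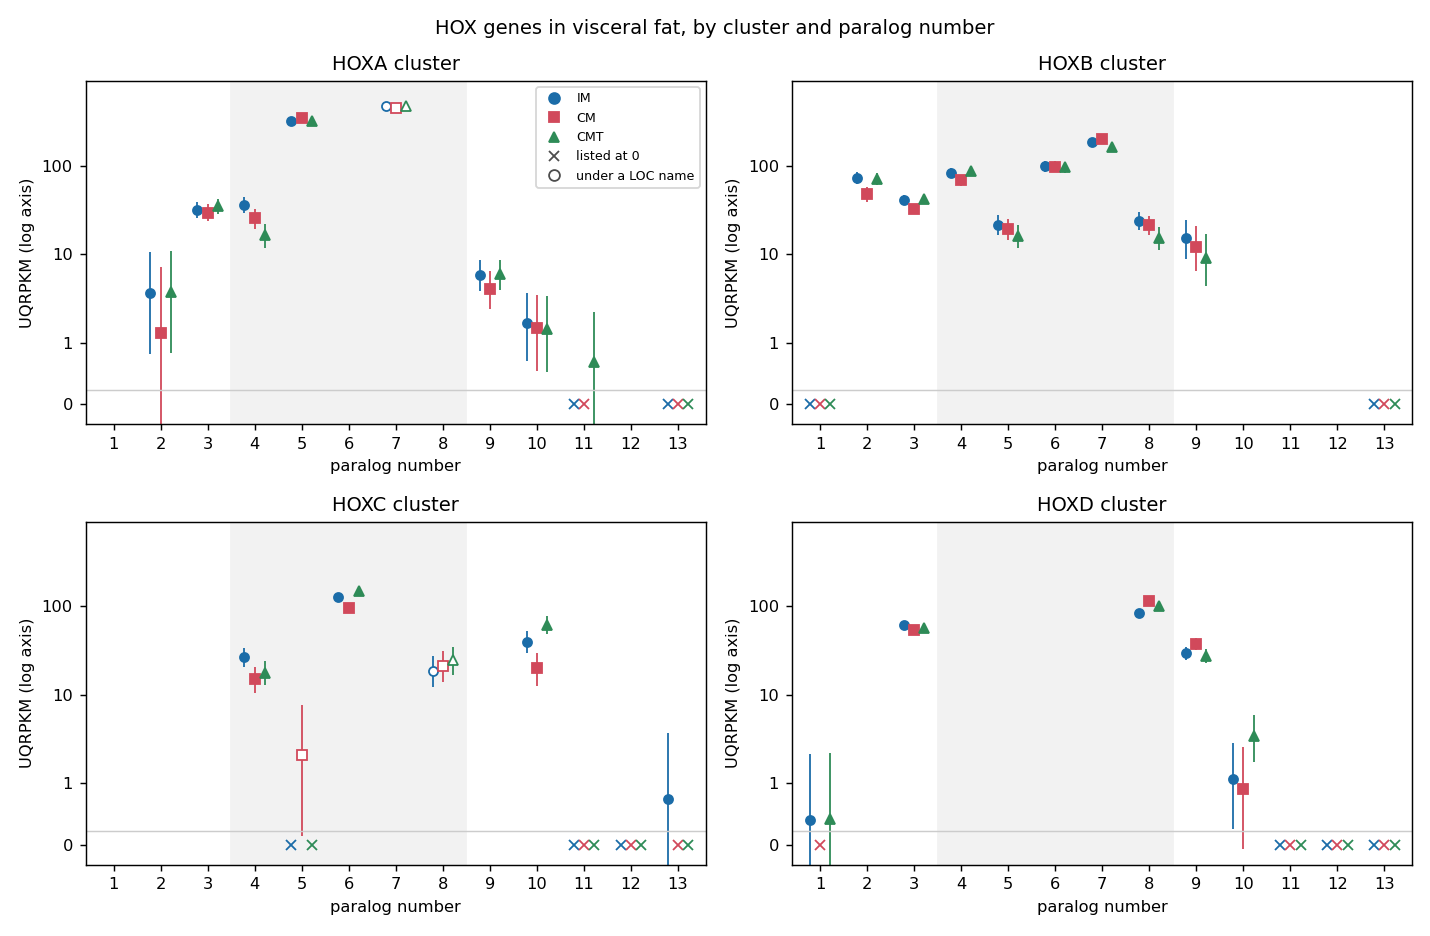
Level of HOX genes (UQRPKM, log axis, with a strip for 0 at the foot) by paralog number in the HOXA, HOXB, HOXC and HOXD clusters, 1 point per library and lines for the exact 95% Poisson interval of its reads. The shaded band marks numbers 4 to 8, where every filled point (a member) was above 10, open points are genes under LOC names, and crosses are genes listed at 0.

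The order of the HOX genes was also shared at its top. HOXA5, a central gene known from lung and trunk patterning and from adipose tissue, was highest among the members of the HOX clusters in every library, at 322, 347 and 319 UQRPKM. HOXB7 came next with 185, 199 and 163. The interval of the HOXA5 level did not reach that of HOXB7 in any library. Below them the order was less sharp: HOXC6 (126, 96.4 and 149) stood behind HOXB7 in IM and CMT, where its interval overlapped that of HOXB7 in CMT, while HOXD8 (84.2, 114 and 101) took that place in CM. Of the 10 highest HOX members by name, 9 were the same in the 3 libraries. They were HOXA5, HOXB2, HOXB3, HOXB4, HOXB6, HOXB7, HOXC6, HOXD3 and HOXD8. The remaining place among members went to HOXC10 in IM and CMT and to HOXD9 in CM. HOXA7, listed under a LOC name and given further on, stood above all of them and is left out of this order.

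In the HOXA cluster, HOXA3 was at 31.3, 29.4 and 34.6 UQRPKM, and HOXA5 varied by 1.09-fold between its highest and lowest library. HOXA4, which lies between them, had 36.1 in IM against 25.3 in CM and 16.3 in CMT. HOXA4 was thus highest in the intact pool and lowest in the testosterone-treated pool. Of its neighbours, HOXA3 was highest in the treated pool and HOXA5 in CM. The posterior HOXA members were low, with HOXA9 between 4.07 and 5.94 and HOXA10 between 1.42 and 1.67 UQRPKM. In the RefSeq annotation HOXA3 spans HOXA4 and HOXA5, and the handling of strand and shared reads is not given in the sources used here, so the split of reads among these 3 genes is uncertain.

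Among members by name, the HOXB cluster gave the largest share of HOX level, at 41.0%, 39.7% and 38.2%, although HOXA7, listed under a LOC name and given further on, is not in these sums and would put HOXA above HOXB. HOXB6 was the steadiest of all HOX members of at least 10 UQRPKM, with 98.5, 97.1 and 95. HOXB2 had 72.7, 47.3 and 70.3, HOXB3 41.2, 31.9 and 41.8, and HOXB4 82.4, 68.1 and 87.6. These 3 genes were each lowest in CM, with IM and CMT close together. Some genes further along the cluster were ordered differently: HOXB5 (21.3, 19.1 and 16.1), HOXB8 (23.5, 21.3 and 15.2) and HOXB9 (15.2, 12.2 and 9.10) were each highest in IM and lowest in CMT, the last on only 10 to 17 reads. HOXB7, among them, was highest in CM.

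The HOXC cluster varied most between pools. HOXC4 had 26.8, 14.9 and 17.8 UQRPKM, and HOXC6 had 126, 96.4 and 149. HOXC10, a posterior gene that is known from hindlimb and lower trunk and is higher in subcutaneous than in visceral fat of people, had 39.4 UQRPKM in the IM pool against 19.8 for CM and 61.9 for CMT (50, 24 and 77 reads). All 3 expressed HOXC members were lowest in CM, while HOXC8 and HOXC5, under LOC names and given further on, were not. The HOXC members by name made up 14.6%, 10.5% and 17.5% of the level of HOX members. The log2 ratio of their sums was -0.55 for CM versus IM and 0.80 for CMT versus CM.

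The HOXD cluster leaned the other way. HOXD8 had 84.2, 114 and 101 UQRPKM, and HOXD9 had 29.5, 37.6 and 27.7, so both were highest in CM. HOXD3 stayed at 60.6, 53.4 and 56.1. Beyond HOXD9 the cluster was nearly unread. HOXD10 had 1.10, 0.869 and 3.38 UQRPKM from 4, 3 and 12 reads, and HOXD9 overlaps HOXD10 and HOXD11 in the RefSeq annotation, so these reads are uncertain too.

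The HOX cofactors were present throughout. PBX2 was the highest of them at 323, 279 and 315 UQRPKM, and PBX3 was at 56.1, 52.2 and 55.2. Both varied by less than 1.2-fold over the libraries. PBX4 was near the floor at 2.17, 2.28 and 4.07, from 6, 6 and 11 reads. Of the MEIS genes, which like PBX belong to the TALE class of homeobox factors, MEIS3 was steady at 91.0, 86.9 and 84.1, MEIS1 had 31.0, 24.4 and 34.9, and MEIS2 had 28.6, 14.8 and 21.8. MEIS2 was the cofactor of at least 10 UQRPKM that differed most between pools, and it was lowest in CM. Of 4 further TALE genes sought, 2 were found: TGIF1, a repressor, had 124, 120 and 134 UQRPKM, and PKNOX2 was listed at 0.

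Among T-box genes, TBX2 and TBX3, related repressors that act in limb, heart and mammary development, were both ordered IM, CM, CMT from high to low. TBX2 had 198 UQRPKM in IM against 161 in CM and 138 in CMT, and TBX3 had 73.3, 47.1 and 40.4. TBX18, known from mesenchyme of the heart surface and urinary tract, had 90.1, 69.2 and 85.2. TBX5, a forelimb and heart factor, was steady at 33.3, 35.6 and 30.1, while its hindlimb relative TBX4 was seen only in CM, at 0.346. TBX21 (T-bet), which marks T helper 1 and natural killer lymphocytes rather than a body position, had 57, 53.3 and 34.6 UQRPKM. Its level was lowest in CMT. The 10 T and NK lymphocyte markers summed to 624, 549 and 553, of which NKG7 (276, 265 and 207) was also lowest in CMT and CD3G (34.0, 38.9 and 53.0) was highest there, and their part in the TBX21 values was not tested. Of 4 T-box genes outside the naming rule, MGA was at 23.9, 23.3 and 19.2 UQRPKM and the others were at or below 0.663.

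Of the Iroquois genes, IRX3 was clearly read and steady, with 100.4, 103 and 92.9 UQRPKM. IRX4 had 8.18, 10.6 and 9.32. IRX2 and IRX6 stayed at or below 1.47 in every library.

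**Figure D2:**
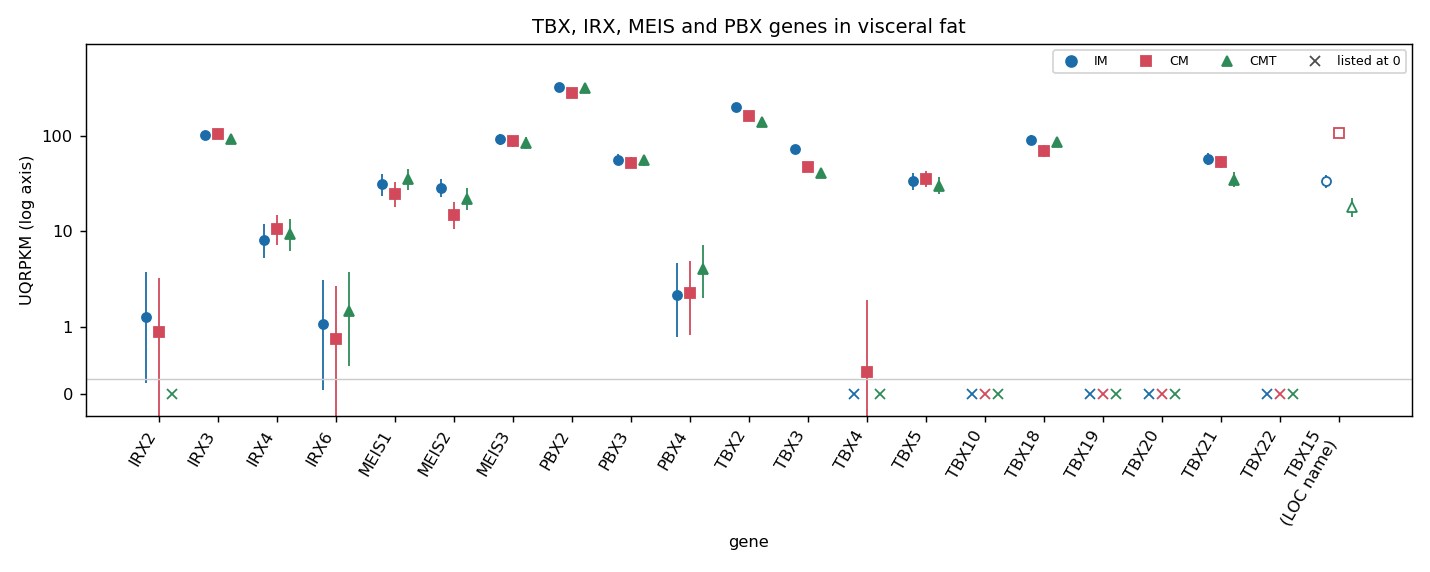
Level of IRX, MEIS, PBX and TBX members and of TBX15 (open points, under a LOC name) in UQRPKM on a log axis with a strip for 0, 1 point per library and lines for the exact 95% Poisson interval of its reads. PBX2, PBX3, MEIS3, TBX5 and IRX3 had points close together, while TBX15 ranged from 17.8 in CMT to 105 in CM.

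Some genes of the same families stood in the files under LOC names and so fell outside the naming rule. They were found by NCBI gene ID in the RefSeq table of build Sscrofa11.1, after values had been seen, and are given as a description only. Of 62 family genes in that table, 7 matched a LOC row. LOC100519456 (HOXA7) had 476, 451 and 474 UQRPKM, above every HOX member by name, and varied by 1.06-fold. LOC100739594 (HOXC8), typed ncRNA, had 18.7, 21.2 and 24.4. Both are central genes, and HOXC8 was highest in CMT on 25 to 32 reads. LOC100152707 (HOXC5) was seen only in CM, with 2.11 UQRPKM from 2 reads, LOC100620451, a further HOXA10 entry, had 2.30, 2.96 and 2.70, and HOXC12 and IRX5 were listed at 0. HOXA6, HOXC9, IRX1, TBX1 and TBX6 matched no row and were not analysed here.

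TBX15 (LOC100158194) varied far more than HOXA7. TBX15 patterns the skeleton and trunk skin and is known as a gene whose level separates fat depots. It had 33.2 UQRPKM in the IM pool against 105 for CM and 17.8 for CMT (156, 471 and 82 reads), so it was highest in the castrated pool and lowest in the treated one. The log2 ratio was 1.66 [1.40 to 1.93] for CM versus IM, -2.56 [-2.92 to -2.22] for CMT versus CM and -0.90 [-1.30 to -0.50] for CMT versus IM. In CM its level exceeded that of 76.0% of mRNA genes, against 60.03% in IM and 53.7% in CMT. Of the members of at least 1 UQRPKM in all libraries, none was higher in CM than in both other pools by 1.5-fold.

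How far the pools shared the levels of all members was set beside all mRNA genes. Across genes of at least 1 UQRPKM in both libraries, Pearson's r of log2 levels over the members was 0.978 for CM and IM (35 genes), 0.964 for CMT and CM (35 genes) and 0.974 for CMT and IM (37 genes). Over all mRNA genes it was 0.972, 0.968 and 0.972. With a minimum of 10 UQRPKM in both libraries, r over the members was lower, at 0.966, 0.927 and 0.953. Over all mRNA genes it was then 0.982, 0.979 and 0.979. These values describe genes of the same pair of libraries, and genes are not independent replicates. Among the 28 members of at least 10 UQRPKM in all libraries, 9 differed by 1.5-fold or more between their highest and lowest library, or 32.1%, against 21.7% of 11142 mRNA genes. With the minimum lowered to 1 UQRPKM the shares were 34.3% of 35 members and 32.8% of mRNA genes. At the steady end, 10 of the 28 (35.7%) varied by less than 1.2-fold, against 34.6% of mRNA genes. Among the 10 were HOXA3, HOXA5, HOXB6, HOXD3, PBX2, PBX3, MEIS3, TBX5 and IRX3.

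For CM versus IM, which sets castrated against intact pigs, 6 of 35 members were called, or 17.1%, where 18.8% of all mRNA genes tested were called (8.38% higher and 10.4% lower). All 6 were lower in CM, namely HOXA2, HOXB2, HOXC4, HOXC10, MEIS2 and TBX3. The log2 ratio was -0.99 [-1.76 to -0.26] for HOXC10, -0.95 [-1.54 to -0.38] for MEIS2 and -0.85 [-1.48 to -0.23] for HOXC4. HOXB2 and TBX3, with many more reads, had -0.62 [-0.98 to -0.26] and -0.64 [-0.84 to -0.43], close to the 1.5-fold limit, and were no longer called when libraries were scaled to the median ratio of all genes. HOXA2 lies outside the rule for named genes and rested on 3 reads in IM and 1 in CM, with an interval from -7.23 to 2.12. Of the genes not called, HOXD8 was higher in CM by 0.43 [0.26 to 0.60], and the interval of HOXA5, at 0.11 [-0.02 to 0.24], reached 0. The median log2 ratio was -0.18 over members and -0.06 over all mRNA genes, and 26 of the 35 members (74.3%) were lower in CM, against 56.8% of all mRNA genes. An exact binomial test on the reads, which compares the libraries and not the conditions, left 5 of the 6 (all but HOXA2), against 10.1% of mRNA genes. With a minimum of 10 UQRPKM, 5 of 29 members were called, against 10.4%. The CM library also carried the hepatocyte RNA given above, and 6 fibroblast and progenitor markers summed to 22107, 18944 and 23900 UQRPKM. COL1A1 (4453, 2235 and 2580), COL6A3 (3361, 2437 and 3117), PDGFRB (707, 595 and 606) and LUM (2285, 2213 and 2416) were lowest in CM. DCN (11012, 11157 and 14747) and PDGFRA (288, 306 and 434) were not. The part of the hepatocyte RNA or of the fibroblast and progenitor cells in these ratios was not tested.

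For CMT versus CM, which sets testosterone treatment against none in castrated pigs, 6 of 35 members were called, again 17.1%, against 19.5% of all mRNA genes (9.53% higher and 9.97% lower). HOXC10 was 3.12-fold higher in CMT, a log2 ratio of 1.64 [0.96 to 2.37], and HOXC6 was higher by 0.62 [0.38 to 0.87]. HOXA2 and PBX4 were also called higher, on 4 and 17 reads over the pair, and the intervals of both included 0. HOXA4 was lower at -0.64 [-1.24 to -0.04] and TBX21 at -0.62 [-0.96 to -0.29]. Some genes that were lower in CM than in IM approached the limit without passing it, with HOXB2 at 0.57 [0.21 to 0.93] and MEIS2 at 0.56 [-0.05 to 1.18]. HOXB2 was called with libraries scaled to equal totals or to the median ratio, at 0.60 and 0.59. TBX3, also lower in CM than in IM, was at -0.22 [-0.46 to 0.02]. The exact binomial test left 3 of the 6 members (HOXC6, HOXC10 and TBX21), against 10.6% of mRNA genes, and a minimum of 10 UQRPKM left 4 of 28, against 10.9%. CM versus IM and CMT versus CM share the CM library, so opposite signs in the 2 comparisons are not independent. The median log2 ratio was -0.03 over members and -0.02 over all mRNA genes.

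For CMT versus IM, which sets castrated and treated pigs against intact ones, 9 of 37 members were called, or 24.3%, against 20.7% of all mRNA genes (8.81% higher and 11.9% lower). TBX3 was lower at -0.86 [-1.07 to -0.64], TBX21 at -0.72 [-1.05 to -0.39] and HOXA4 at -1.15 [-1.72 to -0.61]. HOXB8 (-0.63 [-1.18 to -0.08]), HOXC4 (-0.59 [-1.18 to -0.01]) and HOXB9 (-0.74 [-2.03 to 0.47]) were called lower with wide intervals, and HOXB8 and HOXC4 were no longer called with libraries scaled to equal totals or to the median ratio. TBX2 was lower by a smaller ratio, -0.52 [-0.68 to -0.36], under the 1.5-fold limit. HOXC10 was higher at 0.65 [0.12 to 1.2], and HOXD10 (1.61 [-0.11 to 3.70]) and PBX4 (0.90 [-0.66 to 2.62]) were called higher on intervals that included 0. HOXB2, HOXB3, HOXB4 and HOXB6 had log2 ratios between -0.05 and 0.09 here. The median was -0.05 over members and -0.08 over all mRNA genes. The exact binomial test left 4 of the 9 members (HOXA4, HOXC10, TBX3 and TBX21), against 11.9% of mRNA genes, and a minimum of 10 UQRPKM left 6 of 28, against 12.6%. The CMT library carried the muscle RNA and the higher mesothelial levels given above, whose part in these ratios was not tested.

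**Figure D3:**
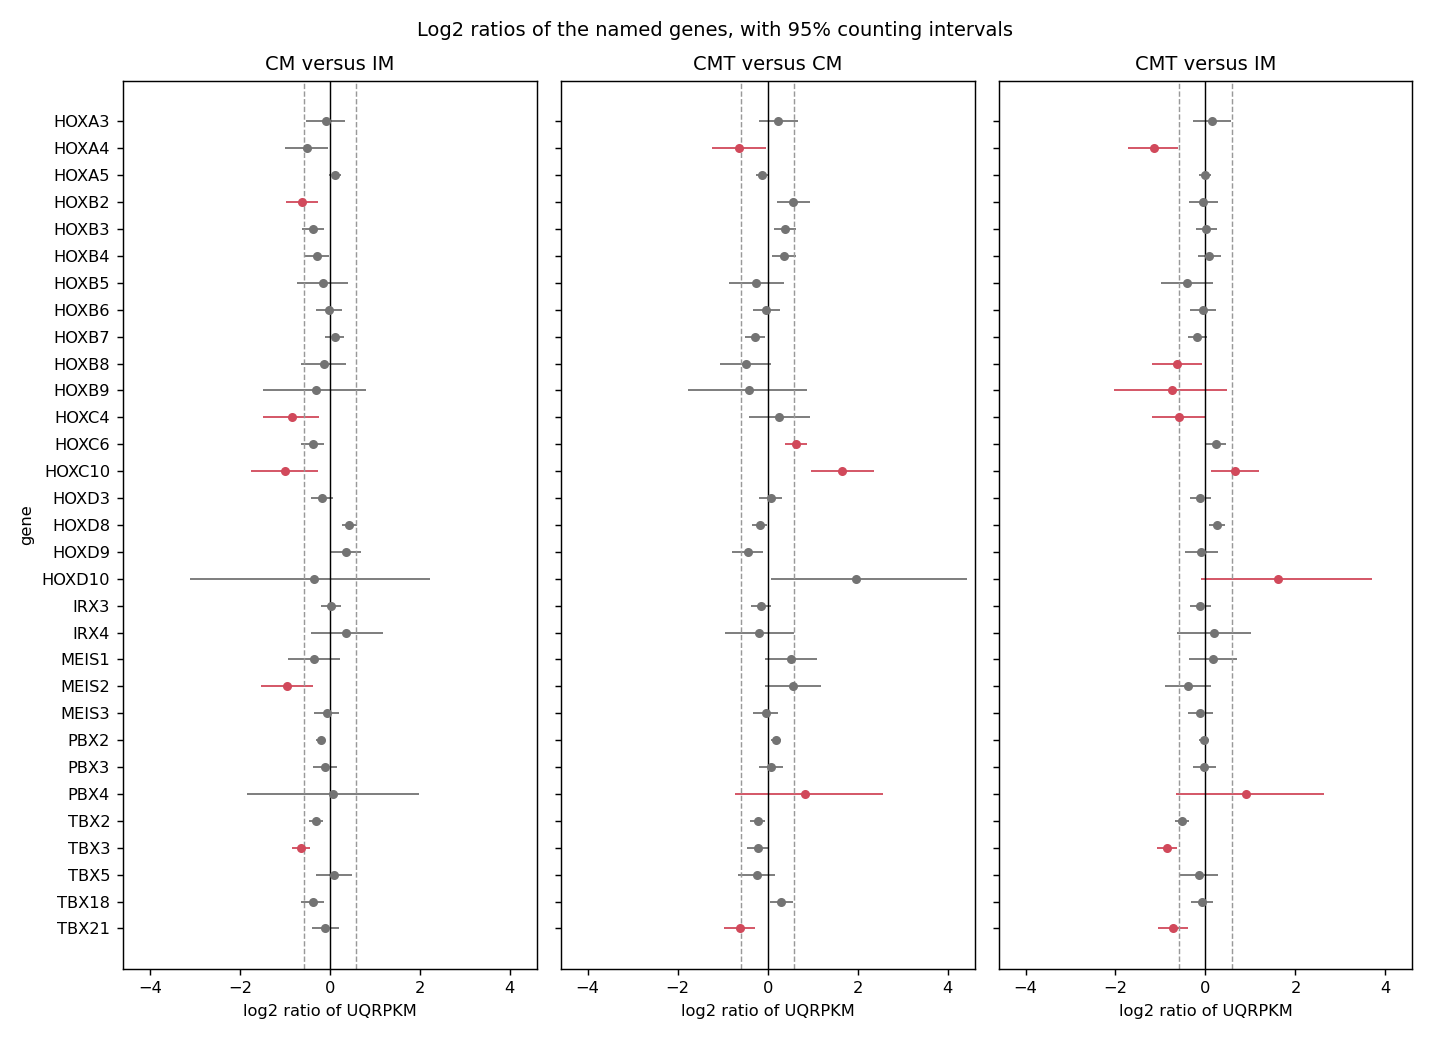
Log2 ratio of named members for each pair of libraries, with exact 95% intervals from the reads. Red points were called and dashed lines mark 1.5-fold. Called genes all lie left of 0 for CM versus IM, and HOXC10 lies at 1.64 for CMT versus CM, where HOXD10 was not called because its CM level was under 1 UQRPKM.

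Developmental genes that are commonly used to tell subcutaneous from intra-abdominal fat were set beside the members. Of 3 subcutaneous genes, SHOX2, a limb and trunk homeobox gene, had 43.2, 23.6 and 47.7 UQRPKM, with log2 ratios of -0.87 [-1.39 to -0.37] for CM versus IM and 1.02 [0.52 to 1.53] for CMT versus CM. EN1, a homeobox gene of the body wall and skin, went the other way, with 49.0, 65.5 and 35.8 and a ratio of -0.87 [-1.34 to -0.41] for CMT versus CM. SFRP2, a secreted Wnt modulator, had 310, 350 and 421. All 3 were read in every pool, and SHOX2, like HOXC10, was lowest in CM.

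Of 9 intra-abdominal genes, 8 were found. NR2F1 (100.1, 71.9 and 79.4 UQRPKM in IM, CM and CMT), NR2F2 (201, 180 and 167), GPC4 (77.8, 52.2 and 46.5) and THBD (348, 350 and 312) were read in every pool, and GPC4 was lower in CMT than in IM by a log2 ratio of -0.74 [-0.97 to -0.51]. Genes of both depot lists were thus present together in each of the 3 libraries. No other depot was sequenced here, so these levels could not be compared between depots. WT1, which marks mesothelium and visceral fat precursors, had 29.5, 33.1 and 67.3, a ratio of 1.02 [0.68 to 1.37] for CMT versus CM. BNC1, also a mesothelial gene, had 0.890, 4.20 and 9.76. Mesothelin (MSLN) had 6.47, 15.4 and 59.5 over the same pools, and the part of mesothelial RNA in the WT1 and BNC1 values was not tested. TCF21, a visceral mesenchyme factor, had 8.91, 1.65 and 6.96 from 17, 3 and 13 reads, and GATA4 was at or below 0.718.

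**Figure D4:**
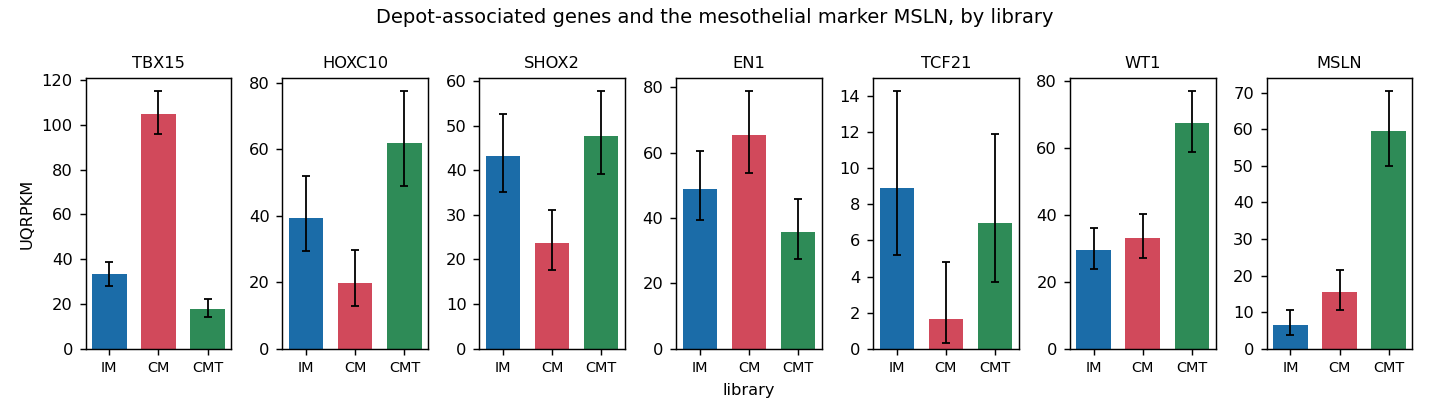
Level of 6 depot-associated genes and of the mesothelial marker MSLN in UQRPKM, 1 bar per library, each panel with its own linear axis from 0 and lines for the exact 95% Poisson interval of the reads. HOXC10, SHOX2 and TCF21 were lowest and TBX15 and EN1 highest in CM, while WT1 and MSLN were highest in CMT, at 67.3 and 59.5.

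Genes of the complexes that keep HOX genes silent or active were counted next. Of 14 Polycomb genes found of 15, which hold HOX genes silent, 1 was called higher and 1 lower in CM versus IM, 1 higher and 2 lower in CMT versus CM, and none (0) between CMT and IM, or 14.3%, 21.4% and 0%, where 18.8%, 19.5% and 20.7% of all mRNA genes were called. SUZ12, a core subunit of the repressive complex, was the one higher in CM, with 18.2, 28.0 and 18.0 UQRPKM. PHC2, of the other Polycomb complex, was the one lower, with 8.45, 5.46 and 8.96 from 26, 16 and 27 reads, and CBX2 (19.8, 22.5 and 14.7) was lower with SUZ12 in CMT versus CM. Of 11 Trithorax and demethylase genes, which keep HOX genes active, 0 were called in any of the 3 comparisons, against the same shares of all mRNA genes. KMT2D, at -0.58 [-0.67 to -0.50] for CM versus IM, fell just short of the 1.5-fold limit. All genes found on both lists except PHC2 were above 10 UQRPKM in every library. With that minimum 10.4%, 10.9% and 12.6% of mRNA genes were called. No replicated test stands behind these counts.

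Retinoic acid sets HOX expression in the embryo, and 8 of 14 genes of its pathway were found. ALDH1A2, which makes retinoic acid and is also a mesothelial and stromal gene, had 488, 267 and 286 UQRPKM, a log2 ratio of -0.87 [-1.03 to -0.71] for CM versus IM and -0.77 [-0.93 to -0.61] for CMT versus IM. Called retinoid genes were 1 of 6 in CM versus IM, or 16.7%, and 1 of 6 in CMT versus CM, also 16.7%. In CMT versus IM they were 3 of 7, or 42.9% (ALDH1A2, CRABP1 and CRABP2, all lower in CMT). Of all mRNA genes, 18.8%, 19.5% and 20.7% were called in these comparisons, in the same order. CRABP2, a carrier of retinoic acid, had 56.8, 77.9 and 32.3, and was lower in CMT than in CM at -1.27 [-1.78 to -0.78]. CRABP1 had 25.4, 0 and 7.77, with 20, 0 and 6 reads. The nuclear receptor genes RARG (144, 133 and 161) and RXRB (210, 190 and 208) were not called in any comparison.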

How the data were processed

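The authors made libraries from the pooled RNA with the Ion Total RNA-Seq Kit v2, sequenced them on the Ion Proton as single-end reads, aligned them with MapSplice to Sscrofa 10.2 and deposited 1 table per library of RPKM values scaled to the upper quartile (UQRPKM). The counting tool, annotation, strand setting and treatment of reads with several matches are not given in the sources used here. The deposited RPKM values were used as they stand, without a pseudocount. Whole reads were recovered from the steps of the values for 20838 genes (all 100% whole, largest relative error 7.65e-09), which gave 16611931, 15561124 and 15106608 reads for IM, CM and CMT. The shortest transcript length that fitted all libraries was taken, so reads of some genes may be low by a common factor and their intervals too wide. The recovery was checked on simulated data, and the test on the simulated reads themselves rather than on recovered ones. There the 1.5-fold limit alone also called unchanged genes, which the test removed. Those genes were given counting error only, so their removal was built in and says nothing about differences between pigs.

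Ratios of 1.5-fold and above were called, given 1 UQRPKM in each library. Intervals were exact (Clopper-Pearson for ratios, Poisson for levels) at 95%, in Python 3.11.15 with SciPy 1.17.1, NumPy 2.4.6 and pandas 2.3.3. Alternatives were another fold limit, other minimum levels, a pseudocount of 1, scaling to equal totals or to the median ratio, a minimum of 20 reads over the pair, and an exact binomial test on recovered reads with Benjamini-Hochberg adjustment over mRNA genes at 0.05, which compares libraries and not conditions. Named with values were members of at least 10 UQRPKM in any library or called with at least 10 reads over the pair, and genes of the lists called with at least 20 reads or given as examples of a level. The members and lists were chosen with earlier results of these data known. RefSeq symbols were found for 51 of 53 members, and 16 overlap another gene in Sscrofa11.1. Coordinates were not printed, because the builds differ. Some members that the rule names are not reported here, although counts, sums and medians over the members include them.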

Additional observations from a re-analysis of the deposited data

Results flagged for a closer look

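Some rows inside the HOX clusters that are not typed mRNA, or that bear LOC names, gave reads although the comparisons did not use them. LOC102167757, between HOXC10 and HOXC9, had 22.4, 28.9 and 24.8 UQRPKM (IM, CM and CMT) from 48, 59 and 52 reads. LOC100739594, the HOXC8 entry typed ncRNA, had 18.7, 21.2 and 24.4 from 25, 27 and 32 reads. MIR10B, the microRNA gene between HOXD8 and HOXD3, had 176, 106 and 103 from 21, 12 and 12 reads. LOC102160006, between HOXA13 and HOXA11, had 1.90, 2.80 and 3.11 from 5, 7 and 8 reads. LOC102166259, which overlaps HOXB5 and HOXB6 in the RefSeq annotation, had 0.809, 1.70 and 0.963 from 6, 12 and 7 reads. Each exceeded the 3 reads that a count of 0 allows in every library.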

How the results depend on the processing

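Of 47 counts and medians recomputed under alternatives, 42 stayed within 1.5 times the count or the spread, and 9 of 288 log2 ratios of named members changed sign, all within 0.1 of 0 and none called, under scaling to equal totals or to the median ratio (HOXA5, HOXB2, HOXB6, PBX2 and PBX3). The median ratio of members for CMT versus IM was 0.03 under scaling to the median ratio, and that for CMT versus CM was 0.07 with no minimum level and 0.02 at 10 UQRPKM, where both were below 0 before. With a fold limit of 2, 1 member was called between CM and IM, namely HOXA2. Between CMT and CM it was 2, HOXA2 and HOXC10, and between CMT and IM 2, HOXA4 and HOXD10. Of these, HOXA2 rested on 4 reads over each pair and HOXD10 on 16. The exact binomial test, adjusted over mRNA genes, called 3 of 35 members between CMT and CM and 4 of 37 between CMT and IM. Of all mRNA genes it called 10.6% and 11.9%. Scaling to the median ratio left 4 members for CM against IM, without HOXB2 and TBX3. Shares over all mRNA genes were not computed for the fold limit of 2 or for this scaling. The minimum of 10 UQRPKM was chosen after seeing the data. No paired analysis was possible because each group had 1 library, and for the same reason no library could be left out.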
